A study of Saccharomyces cerevisiae with 42 samples.

Results

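The iron uptake genes of Saccharomyces cerevisiae are 10 genes whose products bring iron into the cell from outside, and they were picked by name (FET3, FTR1, FIT1, FIT2, FIT3, ARN1, ARN2, SIT1, ENB1 and FRE1) out of 7127 genes in the count tables. All 10 were found by their systematic identifiers and all 10 passed the filter on low counts. Their RNA was followed during growth of the haploid laboratory strain BY4742 in the rich medium YPD at 30 C. The file names call the strain wild type (Wt), and the authors list deletions of HIS3, LEU2, MET15 and URA3 in it. Cultures were diluted into fresh YPD and grown for 2 h before the first harvest, called 0 h, so every group shares that dilution and that medium, and later harvests followed after 2, 4 and 6 h of further growth. PolyA-selected, stranded RNA-seq gave 24 libraries for the first harvest and 6 for each later one, which the labels call biological replicates. In RNA from whole cultures, a lower level in every cell and the same level in fewer cells cannot be told apart.

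Budding yeast takes up iron by 2 main routes. In the reductive route, surface metalloreductases such as Fre1 reduce ferric iron, and the multicopper oxidase Fet3 and the permease Ftr1, which work as a complex in the plasma membrane, carry it in. In the siderophore route, the cell wall mannoproteins Fit1, Fit2 and Fit3 help to retain iron bound to siderophores, which are iron chelators secreted by other microbes, and the Arn family transporters import the complexes. When iron is scarce, the activator Aft1 raises transcription of these genes through a short promoter element whose core is GCACCC, so together they are known as the iron regulon.

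Levels are given as normalized counts, that is, whole-gene read counts scaled to the average library total of 13900104 counts. Library totals lay between 4339150 and 31908031 counts. The lowest raw count of any member in any library was 30 (FIT1). The libraries fell into 2 sets by how steeply log2 CPM (counts over the library total) climbed with log2 gene length across 4478 protein-coding genes. This slope lay between -0.079 and 0.19 in 10 libraries (flat) and between 0.38 and 0.62 in the other 32 (steep). The flat set held 7 of the 0 h libraries, 1 of those from 2 h, none from 4 h and 2 from 6 h. The headers of 18 of the 24 libraries at 0 h carry an alignment name other than 30C (6 each of 10C, 35C and Na200), although the labels give all of them as 30 C. Results at 6 h are therefore given below also within each set and against the 6 libraries at 0 h named 30C.

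The upstream sequences are shown first, because the promoter element described above was found in most of the members. The word TGCACCC, read on both strands in the 500 bases before the start codon (R64 genome), occurred in 139 of 5987 such windows of protein-coding genes (2.32%) and in 9 of the 10 members. At least 2 matches occurred in 12 windows (0.200%) and in 5 members, namely FTR1, FIT1, FIT2, FIT3 and ENB1. The shorter word GCACCC, which lies within the longer one, occurred in 456 windows (7.62%) and in the same count of 9 members. FRE1 was the member with neither word in its window. A match is only a stretch of letters and was not tested for binding. The windows below are written 5′ to 3′ on the strand of the gene, with TGCACCC or its reverse complement GGGTGCA in capitals. Shown are 5 of the members whose RNA changed at 6 h, and FIT2 for its 4 matches.
FET3, chrXIII:388561-388587, plus strand: tcttcaaaagTGCACCCatttgcaggt
SIT1, chrV:27459-27485, plus strand: acacatttgaGGGTGCAatctggttcg
ENB1 distal, chrXV:21488-21514, minus strand: tttaaattatTGCACCCaaatgtgata
ENB1 proximal, chrXV:21432-21458, minus strand: ggcttacaatTGCACCCctctgtggct
FIT1 distal, chrIV:1505168-1505194, minus strand: aactatgccgTGCACCCtgttccgcac
FIT1 proximal, chrIV:1505066-1505092, minus strand: ttctaggaaaGGGTGCAaaaaaatgaa
FIT3 distal, chrXV:1061324-1061350, minus strand: gattttttttTGCACCCtgtttgttcc
FIT3 proximal, chrXV:1061223-1061249, minus strand: ttctaggaaaGGGTGCAaaaaaatggg
FIT2 distal, chrXV:1059190-1059216, plus strand: ctcaagagcaGGGTGCAatttatcaag
FIT2 proximal, chrXV:1059390-1059416, plus strand: gaatctaactGGGTGCAgtataattag

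The proximal windows of FIT1 and FIT3 read almost letter for letter alike, and the matches in them began 182 and 184 bases before the start codons. Over the whole 500 bases, the upstream windows of FIT1 and FIT3 were 60.8% identical in a global alignment, the highest of the 45 pairs of members, against 56.6% for the next pair and a median of 53.0%. The other pair of FIT2 matches, 266 and 249 bases before its start codon, lay between the 2 windows shown. FET3 and SIT1 had a single match, at 251 and 188 bases.

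At 6 h the members did not move as a block. Relative to 0 h, 5 of the 10 were lower (SIT1, ENB1, FRE1, FET3 and ARN2), 2 were higher (FIT1 and FIT3), and FTR1, ARN1 and FIT2 did not pass the test (edgeR's quasi-likelihood test, adjusted p under 0.05 over 6179 genes). Of all genes tested, 43.4% were called in this comparison, 18.3% lower and 25.1% higher. The members' median log2 change was -0.44, against 0.033 over all genes tested.

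**Figure D1:**
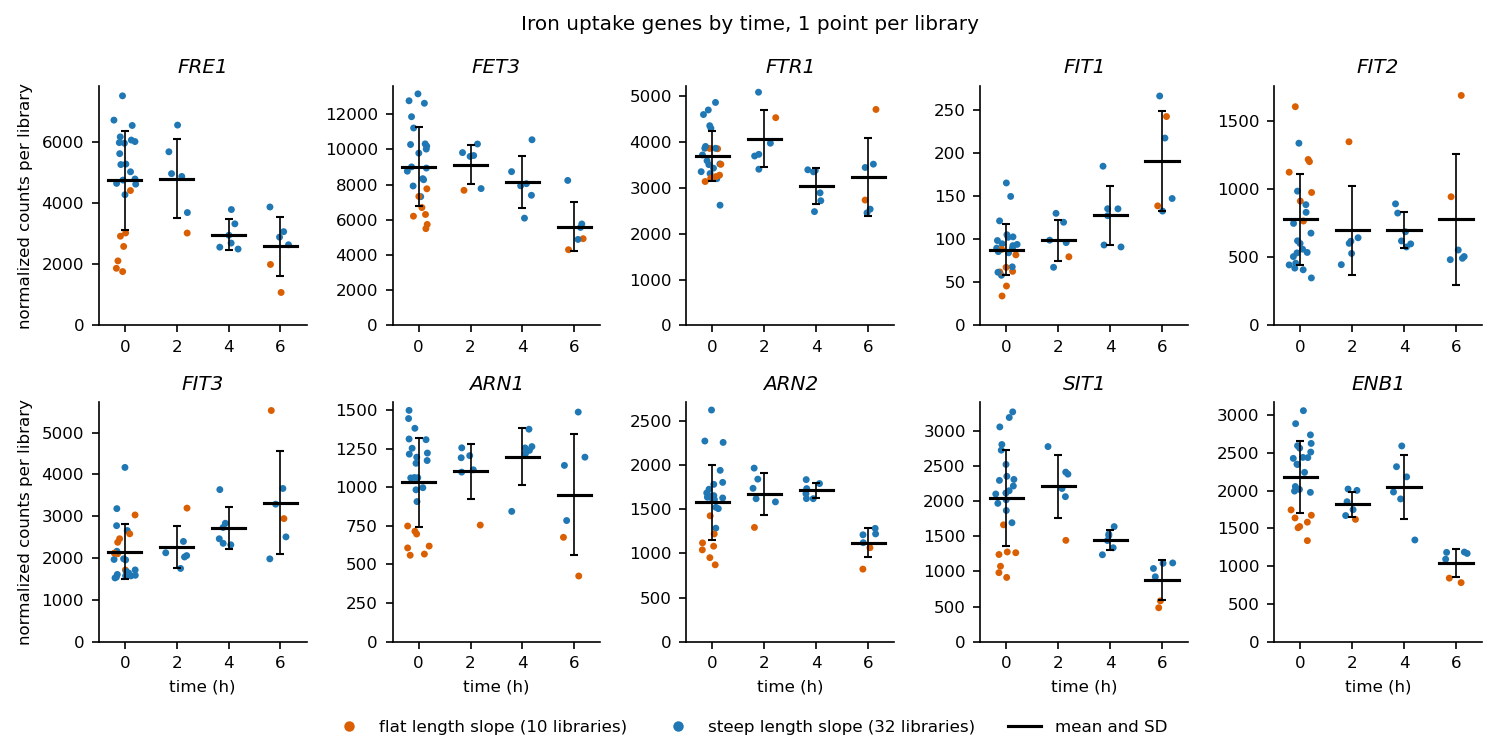
Normalized counts of the 10 iron uptake genes (y axis, from 0) at 0, 2, 4 and 6 h (x axis), with 1 point per library, orange for the flat and blue for the steep length-slope set; bars give the mean and SD. All 6 ENB1 values at 6 h lie below all 24 values at 0 h, while FIT1 at 6 h lies above the 0 h median in all 6 libraries.

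FRE1 (YLR214W, chrXII:568567-570627, plus strand, a single exon of 2061 bp) encodes a plasma membrane ferric and cupric reductase. Its normalized counts lay between 1081 and 3878 at 6 h (median 2767), against 1764 to 7514 at 0 h (median 4911). All 6 libraries at 6 h were below the 0 h median and 1 of them was below every 0 h library. FRE1 fell by 0.98 on the log2 scale (SE 0.21, edgeR adjusted p = 0.000226), to a mean of 2593 ± 960 (SD, n = 6) at 6 h, against 4749 ± 1615 (SD, n = 24) at 0 h. Within the sets the change was -0.97 in steep and -0.91 in flat libraries, the last with an edgeR adjusted p of 0.0531.

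FET3 (YMR058W, chrXIII:388822-390732, plus strand, 1911 bp, no intron) encodes the ferroxidase of the high-affinity complex. It had 4304 to 8240 normalized counts at 6 h (median 5252), against 5503 to 13159 at 0 h (median 8855). Here 3 of the 6 libraries at 6 h were below every 0 h library, and the other 3 overlapped the lower part of the 0 h range. FET3 fell by 0.78 (SE 0.15, edgeR adjusted p = 3.33e-05). The change was -0.83 in steep libraries and -0.63 in flat libraries, and it was called in both.

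FTR1 (YER145C, chrV:460526-461740, minus strand, 1215 bp, no intron) encodes the iron permease that works with Fet3. Its normalized counts were 2454 to 4708 at 6 h (median 3089), against 2621 to 4861 at 0 h (median 3555). The ranges overlapped nearly throughout. The log2 change was -0.28 (SE 0.13, edgeR adjusted p = 0.0635), and this call rested on single choices. It was -0.47 in steep libraries (adjusted p = 0.0026), -0.019 in flat libraries (0.956), and -0.50 without replicate 2 of the 6 h libraries, the one with 4708 counts (0.00074). Leaving out replicate 1, 3, 11, 12 or 21 at 0 h also took its adjusted p below the threshold, with values between 0.0375 and 0.0493.

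The 4 Arn family transporters share 56.6% to 63.2% of their bases in pairwise alignments and no stretch of 50 identical bases. SIT1 (YEL065W, chrV:27657-29543, plus strand, 1887 bp), the ferrioxamine B transporter, had 482.2 to 1121 normalized counts at 6 h (median 983), against 915 to 3275 at 0 h (median 2111). All 6 libraries at 6 h were below the 0 h median, and 2 of them lay under every 0 h library. SIT1 fell by 1.33 on the log2 scale (SE 0.19, edgeR adjusted p = 2.53e-07), with -1.31 in steep and -1.30 in flat libraries.

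ENB1 (YOL158C, chrXV:19491-21311, minus strand, 1821 bp) encodes the enterobactin transporter. It had 781 to 1186 normalized counts at 6 h (median 1129), against 1337 to 3058 at 0 h (median 2294). This was the member whose groups did not overlap at all. How many of all genes tested separated in the same way was not counted. ENB1 fell by 1.17 on the log2 scale (SE 0.13, edgeR adjusted p = 5.07e-10), with -1.19 in steep and -1.09 in flat libraries.

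ARN2 (YHL047C, chrVIII:8351-10213, minus strand, 1863 bp), a transporter of triacetylfusarinine C, had 822 to 1284 normalized counts at 6 h (median 1166), against 871 to 2627 at 0 h (median 1623). All 6 libraries at 6 h were below the 0 h median. ARN2 fell by 0.59 (SE 0.12, edgeR adjusted p = 0.000161), with -0.67 in steep libraries and -0.34 in flat libraries, where it was not called (0.137). YHL046W-A overlaps ARN2 on the other strand, and the counting used the strand. ARN1 (YHL040C, chrVIII:19088-20971, minus strand, 1884 bp), the ferrichrome transporter, had 425 to 1488 normalized counts at 6 h (median 964), against 560 to 1499 at 0 h (median 1063). Its groups overlapped almost completely, and its log2 change was -0.23 (SE 0.17, edgeR adjusted p = 0.282).

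The 3 FIT genes encode the cell wall mannoproteins. FIT1 (YDR534C, chrIV:1503314-1504900, minus strand, 1587 bp) had 133 to 266 normalized counts at 6 h (median 182), against 34.2 to 165 at 0 h (median 89.0). Of the 6 libraries at 6 h, 3 lay above every 0 h library and all lay above the 0 h median. FIT1 rose by 1.05 on the log2 scale (SE 0.18, edgeR adjusted p = 4.63e-06), with 0.86 in steep and 1.47 in flat libraries, and it was called in both. Stretches of 50 bases of FIT1 that occur more than once in the genome made up 11.9% of the gene, against 0% for the other 9 members, and reads with several positions were not counted.

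FIT3 (YOR383C, chrXV:1060441-1061055, minus strand, 615 bp) had 1980 to 5531 normalized counts at 6 h (median 3116), against 1524 to 4168 at 0 h (median 1973). All 6 libraries at 6 h exceeded the 0 h median and 1 exceeded every 0 h library. FIT3 rose by 0.54 on the log2 scale (SE 0.19, edgeR adjusted p = 0.0206). Without replicate 2 at 6 h, the library with 5531 counts and a flat length slope, the change was 0.24 and the adjusted p was 0.306. It was 0.34 in steep libraries (adjusted p = 0.146) and 0.73 in flat libraries (0.041).

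FIT2 (YOR382W, chrXV:1059531-1059992, plus strand, 462 bp), the next gene to FIT3 and oriented toward it, had 483.1 to 1688 normalized counts at 6 h (median 530), against 349 to 1606 at 0 h (median 713). The 2 flat libraries at 6 h had 945 and 1688 counts and the 4 steep libraries 483.1 to 554. Its log2 change was -0.083 (SE 0.30, edgeR adjusted p = 0.849), with -0.46 in steep and 0.12 in flat libraries, neither of them called.

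**Figure D2:**
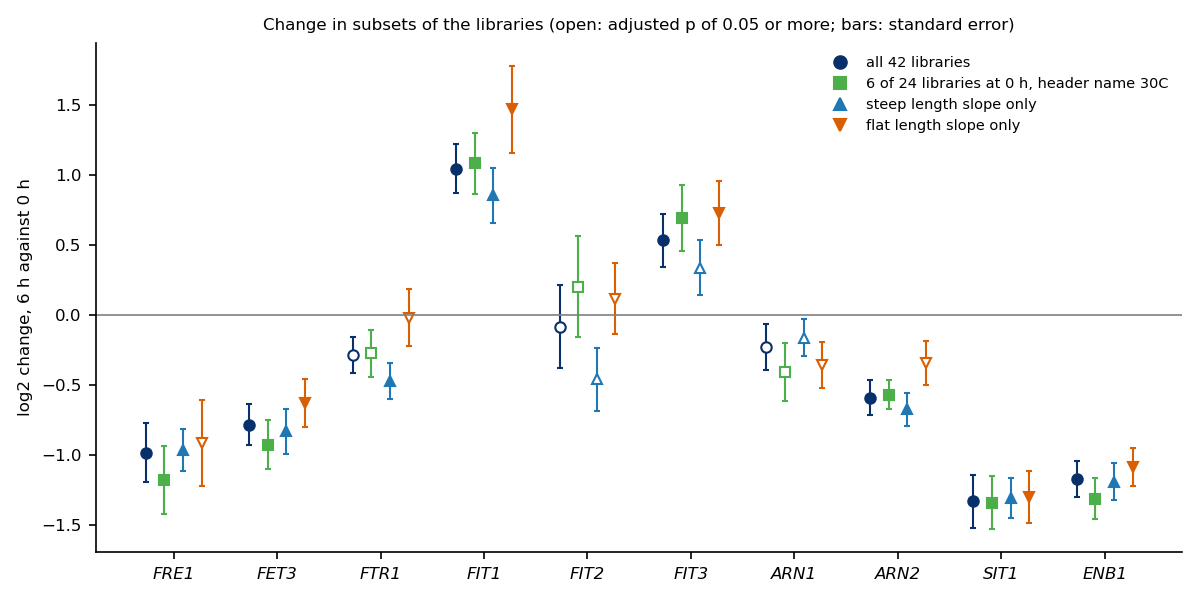
Log2 change at 6 h against 0 h (y axis) of each iron uptake gene (x axis) in all 42 libraries, with 6 of the 24 libraries at 0 h (header name 30C), in steep libraries and in flat libraries; error bars are standard errors and open symbols mark an adjusted p of 0.05 or more. SIT1 lies between -1.34 and -1.30 and ENB1 between -1.31 and -1.09 in all 4 fits, whereas FTR1, FIT3, ARN2 and FRE1 are called in some fits and not in others.

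With the 6 libraries at 0 h named 30C in place of all 24, the 7 members called at 6 h were the same and in the same directions. Their log2 changes were -1.34 for SIT1, -1.31 for ENB1, -1.18 for FRE1, -0.93 for FET3, -0.57 for ARN2, 0.69 for FIT3 and 1.09 for FIT1. Scaling to library totals in place of TMM also left the 7 calls and their directions in place, although it raised the median log2 change of all genes at 6 h to 0.14 and moved the split of all called genes to 1888 higher and 773 lower, against 1551 higher and 1133 lower.

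The earlier time points were compared with 0 h in the same way. At 2 h none of the 10 passed the test, against 0.0809% of all genes higher and 0.0324% lower (0.113% in all). Their log2 changes against 0 h lay between -0.32 (ENB1) and 0.11 (FIT1), with a median of 0.0073 (-0.0049 over all genes), and at an unadjusted p under 0.05 there were 610 genes of 6179 and 1 member, ENB1. ENB1 had 1619 to 2020 normalized counts at 2 h (median 1800), against 1337 to 3058 at 0 h, and all 6 libraries were below the 0 h median. Its change was -0.32 (SE 0.12, edgeR adjusted p = 0.32). In steep libraries alone it was -0.44 (adjusted p = 0.043), and DESeq2 called none of the members and 27 genes in all.

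At 4 h, 3 of the 10 members were lower than at 0 h (FRE1, SIT1 and FTR1) and none was higher, against 15.2% lower and 16.6% higher among all genes (31.8% in all). FRE1 had 2501 to 3794 normalized counts at 4 h (median 2825), SIT1 1238 to 1639 (median 1476) and FTR1 2482 to 3393 (median 3120). In each of the 3, all 6 libraries lay below the 0 h median, and the 4 h values sat inside the lower part of the 0 h range except for 1 FTR1 library below it. FRE1 fell by 0.77 (SE 0.21, edgeR adjusted p = 0.00499), SIT1 by 0.59 (SE 0.18, adjusted p = 0.0112) and FTR1 by 0.41 (SE 0.13, adjusted p = 0.0126).

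The other 7 members did not pass at 4 h. FIT1 stood at 0.45 (edgeR adjusted p = 0.0538) with all 6 libraries above the 0 h median, FIT3 at 0.20, ARN1 at 0.13, ARN2 at 0.016, ENB1 at -0.19, FET3 at -0.25 and FIT2 at -0.32. The calls at 4 h changed with the libraries and the scaling used. With library totals in place of TMM, FIT1 was called higher (0.56, adjusted p = 0.0309) and SIT1 was not called (-0.50, adjusted p = 0.0674). All 6 libraries at 4 h were steep, and against steep 0 h libraries 5 members were lower, FET3 (-0.36, adjusted p = 0.0302) and ENB1 (-0.30, adjusted p = 0.024) being added. Against the 6 libraries named 30C only FRE1 was called (-0.96, adjusted p = 0.0223), SIT1 keeping its change of -0.59 with an adjusted p of 0.0596. FIT1 was called higher without replicate 2, 13, 14 or 23 at 0 h or replicate 3 or 6 at 4 h, with adjusted p between 0.0241 and 0.0497.

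**Figure D3:**
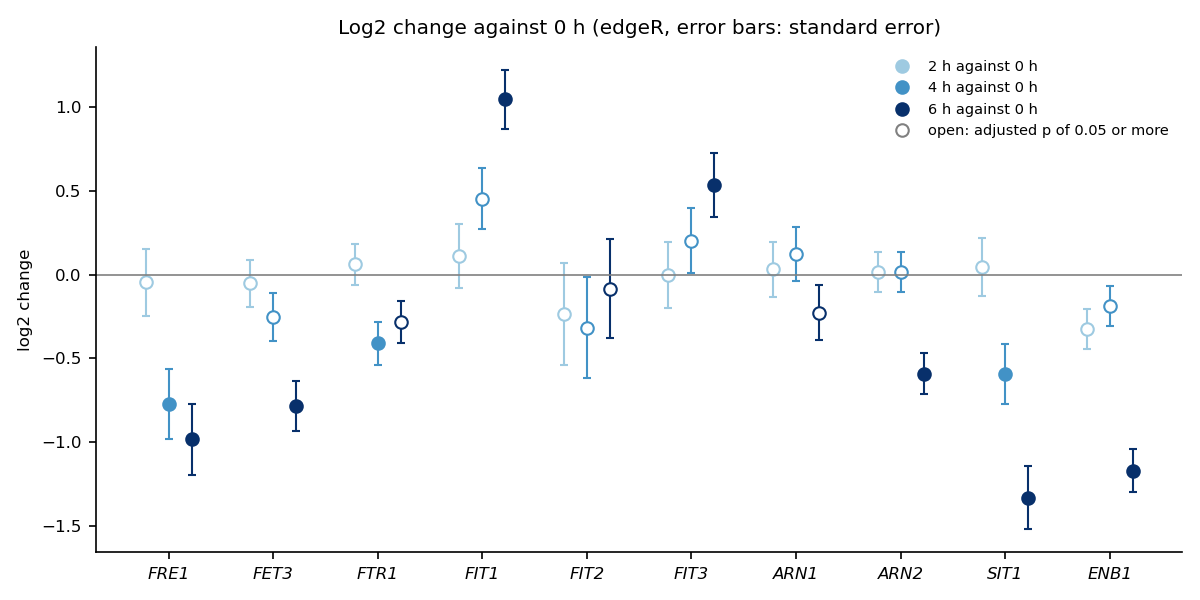
Log2 change against 0 h (y axis, edgeR) of each iron uptake gene (x axis) at 2, 4 and 6 h, light to dark; error bars are standard errors and open symbols mark an adjusted p of 0.05 or more. With all libraries, FRE1, SIT1 and FTR1 were called at 4 h, and FET3, ARN2 and ENB1 at 6 h only, although FET3 and ENB1 were also called at 4 h in steep libraries.

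The later time points were also compared with each other. At 6 h against 4 h, 3 members were lower and none higher, against 0.874% lower and 3.30% higher among all genes (4.18% in all). ENB1 had 781 to 1186 normalized counts at 6 h, against 1346 to 2591 at 4 h, and it fell by 0.98 (SE 0.15, edgeR adjusted p = 4.04e-05). ARN2 had 822 to 1284 counts at 6 h, against 1621 to 1837 at 4 h, and it fell by 0.61 (SE 0.15, adjusted p = 0.0141). SIT1 had 482.2 to 1121 counts at 6 h, against 1238 to 1639 at 4 h, and it fell by 0.74 (SE 0.22, adjusted p = 0.0455). In all 3 the groups did not overlap, and the share of all genes without overlap was not counted. The SIT1 call was lost without any 1 of 9 of the 12 libraries (replicates 2, 3, 4, 5 and 6 at 4 h and 1, 2, 4 and 5 at 6 h), with adjusted p between 0.0529 and 0.167 and changes between -0.80 and -0.65. SIT1 also lost its call with library totals in place of TMM, with no filter on low counts, and with at least 75 counts required in every library. FRE1 stood at -0.21 (adjusted p = 0.659) in this step, with 1081 to 3878 counts at 6 h, against 2501 to 3794 at 4 h.

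FET3 at 4304 to 8240 counts at 6 h, against 6099 to 10552 at 4 h, changed by -0.53 (SE 0.18, edgeR adjusted p = 0.0801). It was called with DESeq2 (-0.55, adjusted p = 0.0435), and in edgeR at -0.68 (0.0176) without replicate 6 at 6 h and at -0.62 (0.0486) without replicate 3 at 4 h. Against 2 h, 5 members were lower at 6 h (SIT1, FRE1, ENB1, FET3 and ARN2) and 1 was higher (FIT1), against 8.51% lower and 14.1% higher among all genes (22.6% in all). SIT1, ENB1, ARN2 and FIT1 did not overlap between 6 h and 2 h, where the share over all genes was not counted either. The comparisons against 2 h and 4 h share the 6 h libraries with those against 0 h.

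FIT1 had 133 to 266 counts at 6 h, against 67.5 to 130 at 2 h, a log2 change of 0.94 (SE 0.24, edgeR adjusted p = 0.00336). FIT3 was at 0.54 in this comparison (adjusted p = 0.122) and at 0.71 (0.0356) without replicate 1 at 2 h, while FTR1 was at -0.35 (0.108) and at -0.57 (0.00311) without replicate 2 at 6 h.

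Levels of different genes were compared per kilobase of gene length. At 0 h FET3 stood first with 4718 ± 1178 normalized counts per kb (SD, n = 24), followed by FIT3, FTR1, FRE1, FIT2, ENB1, SIT1, ARN2, ARN1 and FIT1, the last with 55.3 ± 18.7. Neighbours in this order often overlapped. FET3 exceeded FIT3 in 17 of 24 libraries, FIT3 exceeded FTR1 in 15 and ENB1 exceeded SIT1 in 16. The first place differed between the length-slope sets, as FIT3 exceeded FET3 in 6 of 7 flat libraries (means 3805 and 3406 per kb) and in 1 of 17 steep libraries (3375 and 5258). The lower end was fixed, as ARN2 exceeded ARN1, and ARN1 exceeded FIT1, in all 24. At 6 h FIT3 stood first with 5397 ± 2006 per kb (SD, n = 6), ahead of FET3 with 2940 ± 726 in 5 of 6 libraries, 2 of 2 flat and 3 of 4 steep. SIT1 ranked seventh at 0 h and ninth at 6 h, where it had 465 ± 148 per kb, and ARN1, with 505 ± 208, exceeded it in 4 of 6 libraries. FIT1 remained last at 6 h with 120 ± 36.8 per kb.

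The length-slope sets were defined by how counts climb with gene length, so a division of the members by length follows from that definition. The values at 0 h show its size in the members. The ratio of the mean of the 7 flat libraries to that of the 17 steep libraries was 1.74 for FIT2 and 1.13 for FIT3, the shortest members, 0.90 for FTR1, and 0.48 to 0.65 for the 7 members of 1587 bp or more. FRE1, the longest, had 1764 to 4415 normalized counts in flat libraries and 4279 to 7514 in steep libraries. ARN1 had 560 to 749 in flat libraries and 908 to 1499 in steep libraries, which did not overlap. The sets also held unequal shares of each time point, so fits within each set are given beside those of all libraries. Slopes still differed within the steep set, from 0.38 to 0.54 at 0 h and from 0.46 to 0.62 at 6 h. The part of the slope in the changes over time was not tested.

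**Figure D4:**
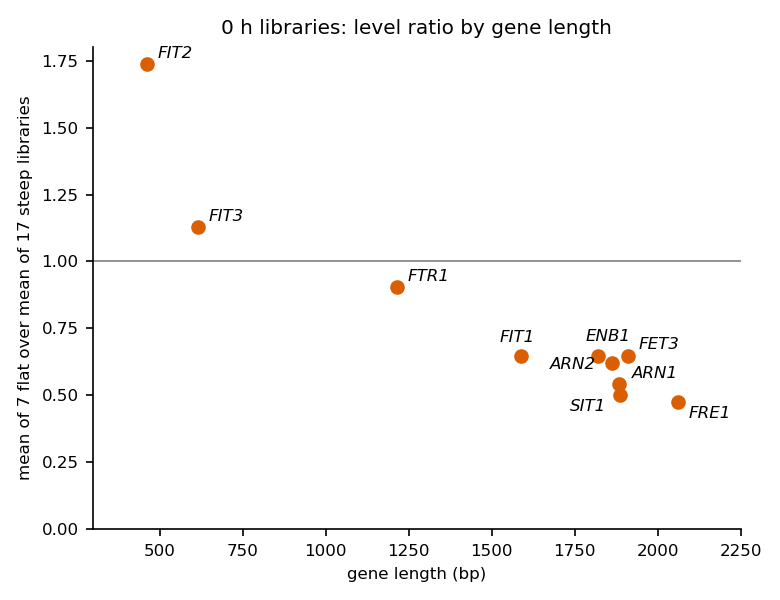
Ratio of the mean normalized count in 7 flat libraries to that in 17 steep libraries at 0 h (y axis, from 0) against gene length in bp (x axis), 1 point per iron uptake gene. FIT2 and FIT3 lie above 1 and the 8 longer genes below 1. The sets were defined by the slope with gene length, so a fall with length follows from that definition.

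The 0 h libraries were also set side by side by the alignment name in the header, with no test because it is not a group of the labels. FIT3 had 2377 to 4168 normalized counts in the 6 libraries named 10C, against 1545 to 2462 in those named 30C, 1524 to 2119 in those named 35C and 1607 to 2657 in those named Na200. FIT2 had a mean of 1167 ± 309 (SD, n = 6) in libraries named 10C and of 618 ± 259, 660 ± 235 and 674 ± 235 in those named 30C, 35C and Na200. Libraries named 10C held 3 of the 7 flat libraries. In steep libraries alone, FIT3 averaged 3375 ± 717 in the 3 named 10C and 1756 ± 209 in the 5 named 30C, so the higher level was there also within 1 set. SIT1 averaged 2212 ± 915 in libraries named 10C and 2024 ± 628 in those named 30C, and 3021 ± 275 in the 3 steep libraries named 10C and 2246 ± 351 in the 5 steep libraries named 30C.

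Other genes of iron handling moved in both directions at 6 h, as did all genes tested (25.1% higher and 18.3% lower, 43.4% in all). These shares belong beside each list count at 6 h below, and no list was tested as a set. Of the 7 other metalloreductase genes (FRE2 to FRE8), 1 was lower and none higher. FRE4 had 71.3 to 212 normalized counts at 6 h, against 156 to 505 at 0 h, and fell by 1.31 (SE 0.18, edgeR adjusted p = 1.06e-07). FRE8 was higher at 4 h (0.65, adjusted p = 0.0229) and at 0.46 (0.0901) at 6 h. The 4 h call was lost without replicate 1 or 4 at 4 h (0.0742 and 0.0737), and at 6 h FRE8 was at 0.60 (0.0289) without replicate 2 at 6 h.

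Of 8 other transporters of iron and related metals, 2 were lower and 2 higher at 6 h. SMF3, which exports iron from the vacuole, had 653 to 1180 normalized counts at 6 h, against 729 to 2017 at 0 h, and fell by 0.78 (SE 0.15, edgeR adjusted p = 2.93e-05). FET4, the low-affinity transporter of the plasma membrane, fell by 0.45 (SE 0.11, adjusted p = 0.00114). CCC1, which moves iron into the vacuole, rose by 0.41 (SE 0.09, adjusted p = 0.000383), and the metal transporter SMF1 rose by 0.81 (SE 0.11, adjusted p = 3.42e-08). CCC1 had 1214 to 1977 normalized counts at 6 h, against 879 to 1222 at 0 h, and its groups overlapped only at their edge. Against the 30C-named 0 h libraries CCC1 was at 0.36 (adjusted p = 0.0554) and FET4 at -0.37 (0.0536), so neither was called there, whereas SMF1 and SMF3 were.

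The 5 genes that supply Fet3 with copper lay between -0.18 (CTR1) and 0.16 (MAC1, the copper-sensing activator) at 6 h, with edgeR adjusted p of 0.119 or more. The copper transporter CTR1 was at -0.66 at 4 h (SE 0.13, edgeR adjusted p = 0.00012) and at -0.18 (adjusted p = 0.252) at 6 h. It had 1545 to 3249 normalized counts at 4 h and 2270 to 4641 at 6 h, against 2021 to 4444 at 0 h.

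AFT1 and AFT2 were not called at 6 h against 0 h. AFT1 had 774 to 1526 normalized counts at 6 h, against 739 to 2023 at 0 h, and its log2 change was -0.15 (SE 0.10, edgeR adjusted p = 0.231). Against 2 h, AFT1 was lower at 6 h, by 0.38 (SE 0.13, adjusted p = 0.0274). For its paralog AFT2 the change at 6 h against 0 h was -0.058 (SE 0.13, adjusted p = 0.752). Of 7 regulators, 2 were higher and none lower than at 0 h, namely FRA1 (0.33, adjusted p = 0.000206) and GRX4 (0.22, adjusted p = 0.0329), whose products take part in the inhibition of Aft1 when iron is plentiful. GRX4 lost its call without any 1 of replicates 3, 6, 11, 12, 13, 16 and 18 at 0 h or 1, 2, 4, 5 and 6 at 6 h (adjusted p between 0.0519 and 0.255), and stood at 0.12 without replicate 2 at 6 h.

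Of the 4 genes of iron sparing and recycling, 2 were lower and none higher. TIS11 (also CTH2), whose product promotes decay of mRNAs of iron-using proteins under iron limitation, had 216 to 382 normalized counts at 6 h, against 314 to 852 at 0 h. It fell by 0.82 (SE 0.15, edgeR adjusted p = 2.82e-05), and all 12 other settings kept that call. Its paralog CTH1 fell by 0.30 (SE 0.09, adjusted p = 0.00562), but kept its call in 6 of 12 other settings, standing at -0.21 (0.206) against the 30C-named libraries and at -0.20 (0.112) with library totals. TIS11 had 2 matches to TGCACCC in its upstream window, and CTH1 had none. FRE5 and CCC2 of the other lists also had 2 matches and were not called at 6 h. Their changes were -0.27 (edgeR adjusted p = 0.313) and -0.13 (0.551). A link between matches and changes was not tested.

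Of 14 genes of iron-sulfur cluster assembly, 3 were higher and 1 lower at 6 h. IBA57, a late-acting assembly factor of mitochondria, had 759 to 1354 normalized counts at 6 h, against 253 to 725 at 0 h, with no overlap, and rose by 1.17 (SE 0.10, edgeR adjusted p = 1.84e-12). ISA2, its partner, rose by 0.45 (SE 0.08, adjusted p = 3.05e-05), and NFU1 fell by 0.29 (SE 0.06, adjusted p = 0.000296). YFH1, yeast frataxin, was lower at 4 h (-0.46, adjusted p = 0.0496) and stood at -0.24 (0.281) at 6 h. The 4 h call was lost without any 1 of 13 libraries, replicates 5, 7, 8, 12, 16, 17, 19 and 21 at 0 h and 1 to 5 at 4 h, with adjusted p between 0.0507 and 0.0946. At 6 h YFH1 was at -0.46 (0.0368) without replicate 2 at 6 h.

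Of 12 genes for iron-using proteins, 5 were higher and 3 lower. The 2 with the largest change in each direction follow. RIP1, the Rieske iron-sulfur protein of respiratory complex III, and SDH2, the iron-sulfur subunit of succinate dehydrogenase, rose by 0.98 (SE 0.10, edgeR adjusted p = 5.23e-11) and 0.97 (SE 0.12, adjusted p = 2.62e-08). LEU1, an iron-sulfur enzyme of leucine synthesis, fell by 1.39 (SE 0.14, adjusted p = 4.39e-11), and BIO2, biotin synthase, fell by 0.98 (SE 0.18, adjusted p = 2.07e-05).

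Zinc was taken as another metal, with the zinc handling genes ZRT1, ZRT2, ZRT3 and ZAP1. Of these 4 genes, 3 were lower at 6 h and none higher. The high-affinity transporter ZRT1 had 791 to 1308 normalized counts at 6 h, against 1280 to 2913 at 0 h, and fell by 1.13 (SE 0.16, edgeR adjusted p = 1.59e-07). ZRT2 fell by 0.57 (SE 0.09, adjusted p = 6.50e-07) and ZRT3 by 0.37 (SE 0.06, adjusted p = 3.94e-06). The median log2 change was -0.47 for the zinc genes and -0.44 for the 10 iron uptake genes.

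**Figure D5:**
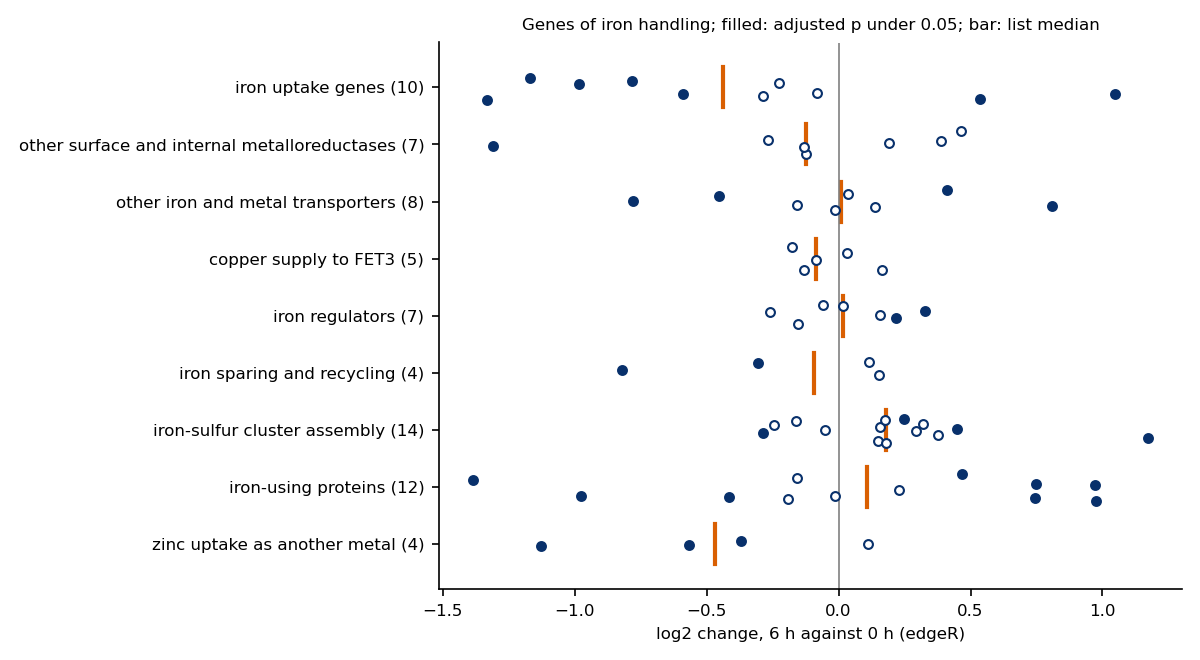
Log2 change at 6 h against 0 h (x axis, edgeR) of single genes in 9 lists (rows, number of genes in brackets), the iron uptake genes on top; filled points have an adjusted p under 0.05 and orange bars give each list's median. The iron uptake genes spread from -1.33 (SIT1) to 1.05 (FIT1), and most genes of copper supply and regulation lie near 0.

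Likeness between genes was described by Pearson's r of log2 CPM over the 42 libraries, which share their depth and length slope across genes. Among the members, ARN2 (r = 0.82), FET3 (0.82), SIT1 (0.72) and ENB1 (0.70) followed the mean of the other 9 most closely, FRE1, ARN1 and FTR1 stood at 0.49, 0.49 and 0.41, and FIT2, FIT3 and FIT1 at -0.026, -0.082 and -0.23. In the 32 steep libraries alone FIT2 stood at 0.58, FIT3 at 0.21 and FIT1 at -0.23. FIT2 and FIT3, which neighbour each other, had r = 0.75 with each other over all libraries, and FIT1 and FIT3 had r = 0.55.

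Outside the members, the gene most like their mean was TIS11 (r = 0.87, and 0.88 in steep libraries). Over all libraries it was followed by INA1 (0.79), SMF3 (0.74), VCX1 (0.74), TCP1 (0.73), FRE5 (0.73), YMR209C (0.69) and GCD11 (0.69). In steep libraries it was followed by SMF3 (0.80), VCX1 (0.78), INA1 (0.77), GSF2 (0.76), UTH1 (0.76), TKL1 (0.74) and TCP1 (0.74). FRE5, YMR209C and GCD11 were thus not among the first 8 there. FRE5 lies beside FIT3 on chromosome XV, and VCX1 encodes a vacuolar calcium exchanger. FET3 alone was most like GCD11 (0.89), INA1 (0.88) and CCT5 (0.86), of which GCD11 encodes a translation initiation factor subunit and CCT5 a chaperonin subunit. In steep libraries it was most like TCP1 (0.92), INA1 (0.90) and PAB1 (0.89).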

How the data were processed

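PolyA-selected stranded RNA-seq of BY4742 at 0, 2, 4 and 6 h was used, in 42 libraries. The authors aligned reads within the nf-core pipeline (STAR), and per the file headers counted them with featureCounts 2.0.3 over genes and over exons of the R64-1-1 annotation. The deposited values are raw counts, with reads of a pair counted singly and reads of several positions left out. ComBat-seq is named in the methods, but the file headers name featureCounts alone.

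Whole-gene counts were fitted for all 42 libraries together with 1 mean per time point (edgeR 4.0.16, TMM scaling, quasi-likelihood test). Genes passed filterByExpr by time point (6179), with Benjamini-Hochberg adjustment over all of them and a threshold of 0.05. Standard errors follow from the fold change and F. On simulated counts for 6 h against 0 h (6122 genes), 92 of 100 genes changed by 1 on the log2 scale and 44 of 100 changed by 0.5 were recovered, and 9 unchanged genes were called. No other genes were changed there, whereas 43.4% were called in the data. The adjustment was therefore stricter in the simulation, and its recovery does not carry over directly. Depth limits FIT1 most. Members and lists were chosen with earlier results of these data known. Named from each list were at most 4 genes, those called at 4 h or 6 h against 0 h with the largest change, and always AFT1, AFT2 and FET4. For likeness, the 8 genes nearest the members' mean and the 3 nearest FET3 were named. No library pair of a time point agreed within sampling noise (321 pairs).

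Alternatives were library totals, DESeq2 1.42.0, no filter, at least 75 counts in every library, exon counts, the length-slope set as covariate, steep libraries, the 30C-named 0 h libraries, blocks by replicate number, and leaving out each library. Flat libraries, and the covariate with 30C-named libraries, were added after seeing the data. Sequences are from the RefSeq R64 genome, whose coordinates equalled those of the files for 6038 of 6047 genes in both.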

Additional observations from a re-analysis of the deposited data

Results flagged for a closer look

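In groups of 6 libraries, 4 of the 30 member and time point groups held a library that stood apart by Dixon's 95% criterion, which chance gives in about 1 in 20 groups. FET3 at 6 h was highest in replicate 6, with 8240 normalized counts and 5768 in the nearest library. At 2 h replicate 1 stood apart for 2 members, with 1348 counts of FIT2 (nearest library 644) and 755 of ARN1 (nearest library 1099), and this is the 1 library at 2 h with a flat length slope. ARN1 at 4 h was lowest in replicate 3, with 844 counts and 1218 in the nearest library, and that library was steep.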

How the results depend on the processing

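Over 220 recomputed changes of called members under other settings, none turned its direction and 17 lost the call. Over 355 of uncalled members, 56 changed sign and 18 gained a call with the sign kept. FIT2 at 6 h against 4 h both changed sign and gained a call in 1 setting. Without 1 library at a time, 10 of 408 called values lost the call and none turned. Of the named genes of the other lists, 32 of 260 called values lost the call under other settings and 27 of 660 without 1 library, and none turned. With 1 library left out at a time, the members called ranged from 7 to 8 at 6 h against 0 h, from 3 to 4 at 4 h against 0 h, from 6 to 7 at 6 h against 2 h, from 2 to 4 at 6 h against 4 h, and were 0 at 2 h against 0 h. Under the other settings, the count at 6 h against 0 h was 7 or 8 except for 6 with at least 75 counts in every library, where FIT1 was not tested, and 5 in flat libraries. At 4 h against 0 h the count was 3, and 5 with the length-slope covariate, 5 in steep libraries and 1 with 30C-named 0 h libraries. At 2 h it was 1 in steep libraries, and at 6 h against 2 h it was 2 in flat libraries, which hold 2 libraries at 6 h and 1 at 2 h.

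The replicate numbers of the labels did not pair the libraries (17 of 36 same-numbered pairs correlated above 0.1, and 5 of 24 libraries correlated best with their own number). Those in the file headers did so in part (24 of 36 pairs, 13 of 24 libraries, with every pair above 0.1 for 3 of the 6 numbers). The lowest of these pairs joined a flat and a steep library (6 h with 2 h, r = -0.61 and -0.43). The authors took later samples at set times after 0 h, but the labels do not tie header numbers to cultures. The main fit used no pairing. With the block by label number, 7 members were called at 6 h against 0 h and 2 at 4 h, and with the block by header number 7 at 6 h and 1 at 4 h, where SIT1 was at -0.57 (adjusted p = 0.0625) and FTR1 at -0.38 (0.107). With that block FET3 was called at 6 h against 4 h (-0.52, adjusted p = 0.0267).

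Values that changed sign were those of members not called. FIT2 at 6 h against 0 h was 0.20 with 30C-named libraries, 0.070 and 0.20 with the 2 blocks and 0.12 in flat libraries. At 6 h against 4 h it was -0.36 with the covariate, -0.52 in steep libraries and -0.50 with the covariate and 30C-named libraries (adjusted p = 0.039). At 4 h against 0 h FIT2 was 0.11 with the covariate, 0.061 in steep libraries, 0.11 with the header-number block and 0.37 with the covariate and 30C-named libraries, where ARN1 was -0.041, -0.041, -0.022 and -0.14, and -0.044 with 30C-named libraries alone. ARN2 at 4 h was -0.081 with the covariate and -0.11 in steep libraries. ENB1 at 2 h was 0.012 in flat libraries. AFT2 at 6 h against 0 h was 0.061 with library totals and 0.063 in steep libraries, and between -0.16 and 0.059 without 1 library. Without 1 library, FIT2 at 6 h against 0 h ranged from -0.56 to 0.014 and against 4 h from -0.24 to 0.33, and ARN2 at 4 h against 0 h from -0.0084 to 0.056. The cause was not tested.

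Over all genes, 2684 were called at 6 h against 0 h, and 1583 with 30C-named libraries, 1627 with the label-number block and 1355 in flat libraries. At 4 h the count was 1964, and 370, 402 and 576 with 30C-named libraries and the 2 blocks, 966 with the covariate and 30C-named libraries, and 1262 without replicate 1 at 4 h. At 2 h it was 7, between 0 and 124 under other settings and between 3 and 59 without 1 library (59 without replicate 22 at 0 h, 58 without replicate 1 at 2 h). At 6 h against 2 h it was 1396, and 2312 with the covariate, 2159 in steep and 140 in flat libraries. At 6 h against 4 h it was 258, and 238 higher with 163 lower with the covariate, 110 with 30C-named libraries, 137 with the label-number block, and 112 to 394 without 1 library (153, 140 and 130 without replicates 4, 5 and 6 at 4 h, and 112 and 394 without replicates 2 and 6 at 6 h). With library totals, 1279 genes were higher and 564 lower at 4 h, against 1026 and 938 with TMM, and the median moved by 0.12.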
